A study of Mus musculus with 16 samples.

Results

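The 9 genes described here are interferon-stimulated genes, and they were followed across tdTomato-positive lung cells of 16 mice. They are *Ifit1*, *Ifit2*, *Ifit3*, *Rsad2*, *Oasl2*, *Isg15*, *Irf7*, *Ifitm3* and *Bst2*, chosen by gene symbol among the 49452 genes listed for each mouse, and all 9 were found. RNA of sorted cells was sequenced from 4 groups of 4 separate mice, namely *Acta2-tdT* mice given saline or bleomycin and *Pdgfra-tdT* mice given saline or bleomycin. Bleomycin injures the lung and is followed by fibrosis, and the study used the label to follow cells that had expressed *Acta2* or *Pdgfra* into the injured lung.

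All mice were of a C57BL6 background and carried tdTomatoflox, a reporter that makes the red protein tdTomato once Cre has acted. *Acta2-tdT* mice (Acta2-CreERT2; tdTomatoflox) carried the tamoxifen-dependent Cre under the *Acta2* promoter, which is active in smooth muscle cells and myofibroblasts. *Pdgfra-tdT* mice (Pdgfra-CreERT2; tdTomatoflox) carried it under the *Pdgfra* promoter, which is active in fibroblasts. Lungs were taken at 11 weeks of age, 14 days after saline or bleomycin. Tamoxifen was given to the *Acta2-tdT* mice in food at 400 mg/kg from 5 days after the instillation, and to the *Pdgfra-tdT* mice as 5 injections of 3 mg at 6 weeks of age. The line and the tamoxifen schedule therefore cannot be told apart in any comparison of the lines. The label marks cells whose promoter was active when tamoxifen was present, whatever they became later.

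Interferons are secreted proteins that cells release on sensing foreign or misplaced nucleic acids. Type I and type III interferons bind receptors that activate the kinases Jak1 and Tyk2, and transcription factors that include Irf9 then bind a sequence called the interferon-stimulated response element in the promoters of their target genes. The products of these genes bind viral RNA, block viral entry and release, or make the cell more responsive to the next exposure, and some of them are also made at a constant level in endothelial cells, epithelium and leukocytes.

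The response element was looked for in the promoters of the 9 genes, since it is the sequence through which interferon acts on them. The core searched was GAAA, any 2 bases and GAAA again, on both strands and with overlaps counted, in RefSeq promoters of GRCm38.p6 that run from 250 bases before to 50 bases after the gene start. It was held by 6 of the 10 promoters of the 9 genes (1 promoter each of 6 genes) and by 3.44% of 32851 mouse promoters. The stretches around the matches of 6 genes are given below, 5′ to 3′ on the strand of the gene, with the matches in capitals.
*Ifit1* (chr19:34640760-34640838, plus strand): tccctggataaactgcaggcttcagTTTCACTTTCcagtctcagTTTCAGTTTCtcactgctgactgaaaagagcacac
*Ifit3* (chr19:34583348-34583441, plus strand): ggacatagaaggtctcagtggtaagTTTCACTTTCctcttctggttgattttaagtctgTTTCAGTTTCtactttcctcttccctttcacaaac
*Rsad2* (chr12:26456538-26456597, minus strand): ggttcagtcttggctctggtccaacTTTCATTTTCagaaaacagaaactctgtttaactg
*Isg15* (chr4:156200850-156200921, minus strand): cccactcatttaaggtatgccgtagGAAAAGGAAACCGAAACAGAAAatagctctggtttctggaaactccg
*Bst2* (chr8:71537562-71537627, minus strand): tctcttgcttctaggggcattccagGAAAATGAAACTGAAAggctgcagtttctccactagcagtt
*Ifitm3* (chr7:141010716-141010742, minus strand): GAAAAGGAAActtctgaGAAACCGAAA
*Isg15* held 3 overlapping matches and *Bst2* 2, whereas the 2 matches of *Ifit1* and the 2 of *Ifit3* stood apart and read the same, TTTCACTTTC and TTTCAGTTTC. The 2 matches of *Ifitm3* lay just after the gene start and the others before it. No match to these letters lay in the windows of *Oasl2*, *Irf7* and *Ifit2*.

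Expression was given as FPKM, the fragments mapped to a gene relative to its transcript length and to all mapped fragments, that the authors computed for each mouse. The values carry no read counts and had not been scaled between mice, and the depth of each mouse is unknown. The FPKM of the nuclear protein-coding genes summed to between 35602.5 and 57787.7 in *Acta2-tdT* saline mice and to between 231058.1 and 463127 in *Acta2-tdT* bleomycin mice. In *Pdgfra-tdT* mice they summed to between 29963.6 and 59839.9 with saline and between 28512 and 137952.1 with bleomycin. Every value was therefore examined as deposited and also scaled, with each mouse multiplied so that this sum became 49122.5, the median over the 16 mice. *Acta2* was at 222 ± 77.7 FPKM in *Acta2-tdT* saline cells and 7.28 ± 3.60 in *Pdgfra-tdT* saline cells (SD, n = 4 each). *Pdgfra* itself was low in its own line, at 2.79 ± 0.797 FPKM with saline and 1.70 ± 0.658 with bleomycin (SD, n = 4), beside 7.87 ± 3.94 (SD, n = 4) in *Acta2-tdT* bleomycin cells. After scaling this order turned, with 3.64 ± 0.916 and 1.56 ± 0.613 in *Pdgfra-tdT* cells and 1.01 ± 0.340 in *Acta2-tdT* bleomycin cells, and the bleomycin groups of the lines overlapped.

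The 1445 olfactory and vomeronasal receptor genes, most of which are not known for a role in lung cells, served as a gauge of low values. Their 95th percentile lay between 2.56 and 2.90 FPKM in the *Acta2-tdT* saline mice and between 0.518 and 2.04 in the *Acta2-tdT* bleomycin mice. With saline, *Ifitm3* was the only one of the 9 genes above it in each of the 4 *Acta2-tdT* mice. With bleomycin, 6, 7, 9 and 8 of the 9 genes were above it in *Acta2-tdT* mice 5, 6, 7 and 8. In the *Pdgfra-tdT* line the numbers were 1, 1, 6 and 1 in saline mice 1 to 4, and 2, 2, 2 and 1 in bleomycin mice 5 to 8. Thus 1 saline mouse of the *Pdgfra-tdT* line, mouse 3, stood apart from the other 3 of its group, and it was the highest of its group in 8 of the 9 genes on either scale. The share of all genes above the receptor percentile was not computed. Of all genes, between 12603 and 13572 reached 1 FPKM in *Acta2-tdT* bleomycin mice, against between 8228 and 10809 with saline. In *Pdgfra-tdT* saline mouse 3 the number was 10191, against 7005 to 7422 in the other 3.

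**Figure D1:**
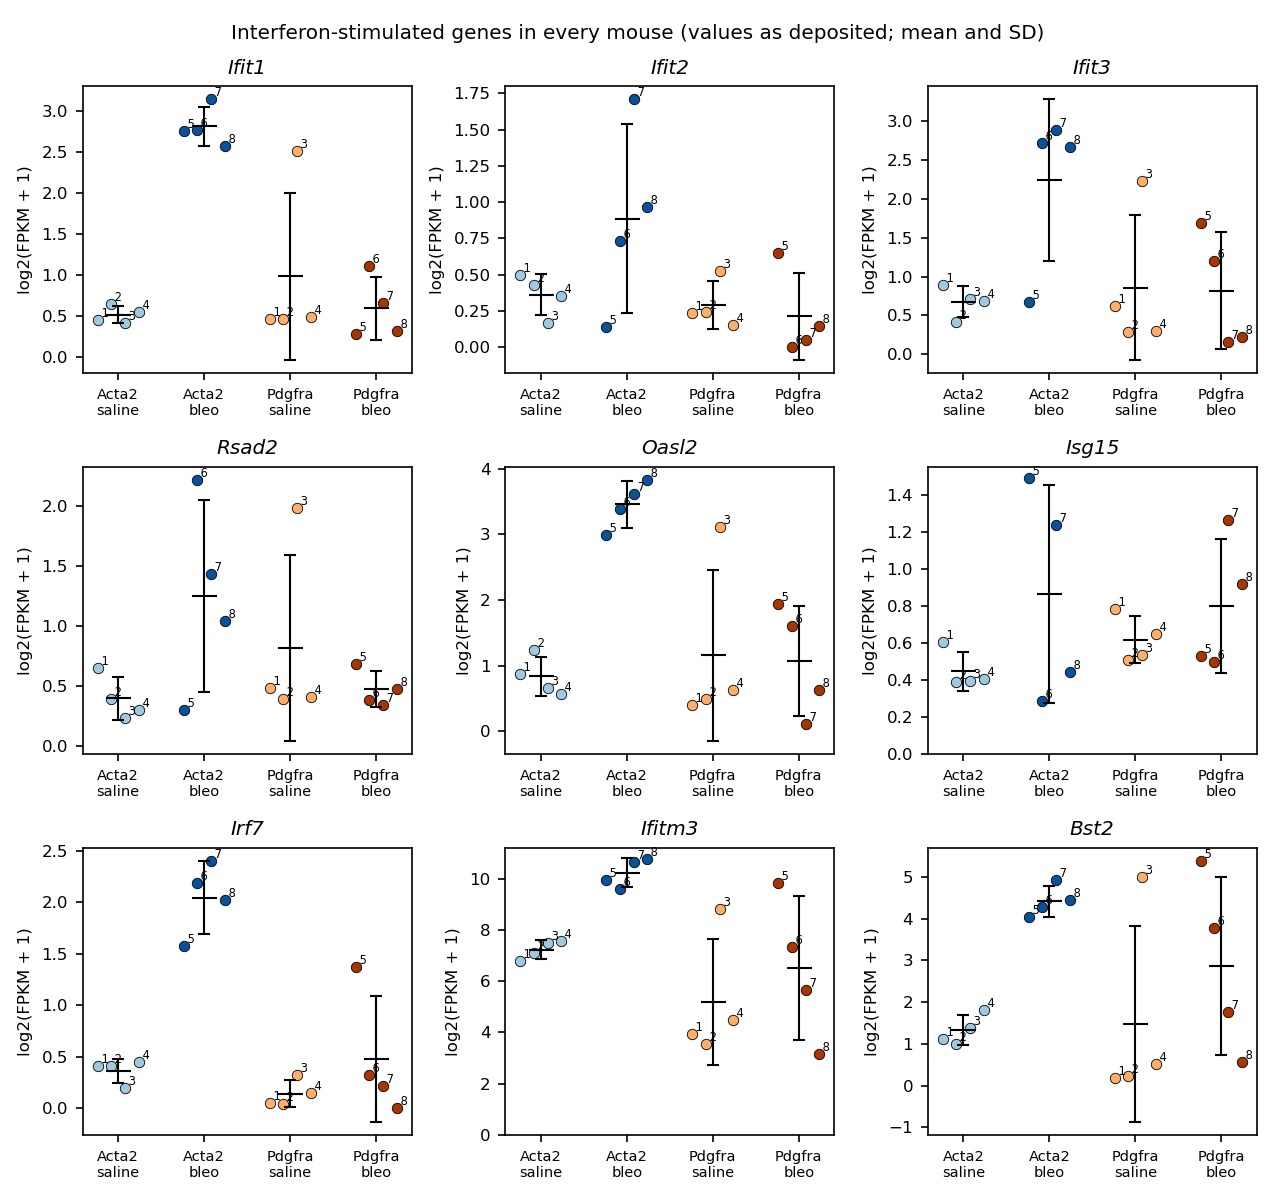
The y axis of each panel gives log2(FPKM + 1) as deposited for 1 gene, and the x axis the 4 groups, with 1 point per mouse, the mouse number beside it, and the mean with its SD (n = 4). The *Acta2-tdT* bleomycin mice lay above all *Acta2-tdT* saline mice for *Ifit1*, *Oasl2*, *Irf7*, *Ifitm3* and *Bst2*, and mouse 3 of the *Pdgfra-tdT* saline group lay far above the other 3 for most genes.

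*Ifit1* (ENSMUSG00000034459, chr19:34640871-34650009, plus strand) encodes a protein that binds viral RNA with an abnormal cap. It was at 0.369, 0.561, 0.328 and 0.460 FPKM in *Acta2-tdT* saline mice 1 to 4, and at 5.79, 5.86, 7.88 and 4.97 in *Acta2-tdT* bleomycin mice 5 to 8. In the *Pdgfra-tdT* line it was at 0.381, 0.384, 4.72 and 0.399 FPKM with saline and at 0.214, 1.17, 0.582 and 0.243 with bleomycin. The *Acta2-tdT* bleomycin mice were the highest group as a whole as deposited, and no mouse of any other group reached their lowest value. After scaling they were at 0.527 to 1.25, and *Pdgfra-tdT* saline mouse 3 was at 3.87. As deposited, the log2 difference between bleomycin and saline in *Acta2-tdT* cells was 2.30 (SE 0.215, limma adjusted p = 1.52e-05). After scaling it was 0.33 (SE 0.147, adjusted p = 0.0807), and the groups overlapped. Without *Acta2-tdT* saline mouse 2 it was called after scaling (0.42, adjusted p = 0.0425).

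*Ifit3* (ENSMUSG00000074896, chr19:34583531-34588731, plus strand), which encodes a partner of the Ifit1 protein, has a near-identical copy, *Ifit3b*, with which reads may be shared. It was at 0.858, 0.332, 0.640 and 0.610 FPKM in *Acta2-tdT* saline mice and at 0.601, 5.58, 6.40 and 5.33 in *Acta2-tdT* bleomycin mice 5 to 8. Its *Pdgfra-tdT* values were 0.537, 0.216, 3.69 and 0.228 with saline and 2.22, 1.30, 0.118 and 0.170 with bleomycin. As deposited, mouse 5 of the *Acta2-tdT* bleomycin group remained at the level of the saline mice, and the other 3 were above every other mouse of the study. After scaling mice 5 to 8 were at 0.0927, 1.19, 0.721 and 0.566, and *Pdgfra-tdT* saline mouse 3 was at 3.03. The gene did not pass the filter on low values in the *Acta2-tdT* comparison, where its log2 difference was 1.56 (exact two-sided permutation p = 0.114) as deposited and -0.07 (exact p = 0.886) after scaling.

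*Ifit2* (ENSMUSG00000045932, chr19:34550710-34576419, plus strand), another gene of this cluster of RNA-binding effectors, was low throughout. It was at 0.410, 0.347, 0.123 and 0.280 FPKM in *Acta2-tdT* saline mice and at 0.0997, 0.664, 2.27 and 0.954 in *Acta2-tdT* bleomycin mice 5 to 8. It was at 0.178, 0.185, 0.442 and 0.111 FPKM in *Pdgfra-tdT* saline mice and at 0.571, 0, 0.0351 and 0.108 in *Pdgfra-tdT* bleomycin mice. The highest as deposited were *Acta2-tdT* bleomycin mice 7 and 8, but the *Acta2-tdT* groups overlapped, with a log2 difference of 0.52 (exact p = 0.171) as deposited and -0.25 (exact p = 0.143) after scaling.

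*Rsad2* (ENSMUSG00000020641, chr12:26442753-26456452, minus strand) encodes viperin, an enzyme that makes a chain-terminating nucleotide against viral polymerases. It was at 0.570, 0.315, 0.179 and 0.231 FPKM in *Acta2-tdT* saline mice and at 0.233, 3.64, 1.70 and 1.06 in *Acta2-tdT* bleomycin mice 5 to 8. *Pdgfra-tdT* mice had 0.400, 0.315, 2.94 and 0.328 FPKM with saline and 0.602, 0.306, 0.269 and 0.388 with bleomycin. As for *Ifit3*, mouse 5 of the *Acta2-tdT* bleomycin group was at the saline level as deposited. The log2 difference in *Acta2-tdT* cells was 0.85 (exact p = 0.0857) as deposited and -0.14 (exact p = 0.571) after scaling.

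*Oasl2* (ENSMUSG00000029561, chr5:114896936-114912234, plus strand) encodes a member of the oligoadenylate synthetase family, which senses double-stranded RNA. It was at 0.832, 1.37, 0.583 and 0.490 FPKM in *Acta2-tdT* saline mice and at 6.99, 9.50, 11.3 and 13.2 in *Acta2-tdT* bleomycin mice. The *Pdgfra-tdT* values were 0.319, 0.405, 7.63 and 0.550 with saline and 2.83, 2.03, 0.0830 and 0.554 with bleomycin. The *Acta2-tdT* groups lay far apart as deposited, with a log2 difference of 2.62 (SE 0.280, adjusted p = 2.05e-05). After scaling they overlapped, with a difference of 0.33 (SE 0.237, adjusted p = 0.257).

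*Isg15* (ENSMUSG00000035692, chr4:156199424-156200818, minus strand) encodes a ubiquitin-like protein that is joined to other proteins on interferon exposure. It was at 0.520, 0.310, 0.313 and 0.323 FPKM in *Acta2-tdT* saline mice and at 1.81, 0.221, 1.36 and 0.362 in *Acta2-tdT* bleomycin mice 5 to 8. Among *Pdgfra-tdT* mice it was at 0.723, 0.420, 0.451 and 0.566 FPKM with saline and at 0.443, 0.411, 1.40 and 0.889 with bleomycin. Mouse 3 of the *Pdgfra-tdT* saline group, the highest of its group in the other 8 genes, was not high here. As deposited, *Acta2-tdT* bleomycin mice 5 and 7 were above all saline mice while mice 6 and 8 were not. The *Acta2-tdT* groups overlapped on both scales, with log2 differences of 0.42 (exact p = 0.343) and -0.33 (exact p = 0.0571).

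*Irf7* (ENSMUSG00000025498, chr7:141262706-141266481, minus strand) encodes the transcription factor that amplifies type I interferon production, and it is itself induced by interferon. It overlaps *Phrf1* on the opposite strand by 45 exonic bases, and the sources used here do not state that counting used strand. It was at 0.326, 0.327, 0.144 and 0.370 FPKM in *Acta2-tdT* saline mice and at 1.98, 3.56, 4.28 and 3.06 in *Acta2-tdT* bleomycin mice 5 to 8. *Pdgfra-tdT* mice had 0.0345, 0.0313, 0.252 and 0.111 FPKM with saline and 1.59, 0.255, 0.160 and 0 with bleomycin. The *Acta2-tdT* bleomycin mice were above all 12 other mice as deposited. The log2 difference from saline was 1.68 (SE 0.213, adjusted p = 4.57e-05) as deposited and 0.13 (SE 0.120, adjusted p = 0.377) after scaling.

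*Ifitm3* (ENSMUSG00000025492, chr7:141009586-141010770, minus strand) encodes a membrane protein that blocks the fusion of viruses with endosomes, and reads may be shared with its close relatives *Ifitm1*, *Ifitm2* and *Ifitm6*. It was by far the most abundant of the 9 genes per length, with 73.9% to 97.8% of their summed FPKM in each mouse. It was at 108, 137, 177 and 187 FPKM in *Acta2-tdT* saline mice and at 986, 771, 1586 and 1739 in *Acta2-tdT* bleomycin mice. Among *Pdgfra-tdT* mice it was at 14.4, 10.6, 452 and 21.2 with saline and at 912, 161, 49.97 and 8.03 in bleomycin mice 5 to 8. Mouse 3 of the *Pdgfra-tdT* saline group and mouse 5 of its bleomycin group reached above every *Acta2-tdT* saline mouse, and the *Acta2-tdT* groups did not overlap as deposited. As deposited, it was higher with bleomycin in *Acta2-tdT* cells by a log2 of 3.01 (SE 0.397, adjusted p = 5.71e-05). Scaled to the nuclear protein-coding sum, the 2 groups were at 168 ± 19.9 and 170 ± 14.6 (SD, n = 4), a log2 difference of 0.02 (SE 0.263, adjusted p = 0.949).

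*Bst2* (ENSMUSG00000046718, chr8:71534255-71537456, minus strand) encodes tetherin, which holds budding virus particles at the cell surface. It was at 1.17, 0.998, 1.60 and 2.53 FPKM in *Acta2-tdT* saline mice and at 15.5, 18.3, 29.2 and 20.8 in *Acta2-tdT* bleomycin mice. In the *Pdgfra-tdT* line it was at 0.127, 0.169, 31.0 and 0.432 with saline and at 40.8, 12.8, 2.41 and 0.485 with bleomycin. Of the 9 genes, *Bst2* was the one whose *Acta2-tdT* groups did not overlap on either scale. Its log2 difference was 3.09 (SE 0.317, adjusted p = 1.83e-05) as deposited and 0.55 (SE 0.194, adjusted p = 0.0365) after scaling, with scaled levels of 1.68 ± 0.331 and 2.95 ± 0.792 (SD, n = 4). The scaled call was lost without any one of *Acta2-tdT* saline mice 1, 2 or 3 or bleomycin mice 6 or 7 (adjusted p 0.0682 to 0.0857), and it was lost when all 16 mice were fitted together (adjusted p = 0.625).

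The comparison of bleomycin with saline in *Acta2-tdT* cells asked whether labelled cells of the injured lung carried more interferon-stimulated RNA. A gene was called at a limma adjusted p under 0.05, and it was tested where it reached 1 FPKM in 4 or more of the 8 mice. As deposited, 5 of the 9 genes were tested and 5 were called higher, beside 70.4% of 12523 genes called higher and 16.3% called lower. *Ifit1* and *Irf7* had no saline mouse at 1 FPKM and passed the filter through the bleomycin group alone, so their call follows in part from the filter. With no filter, 6 of the 9 genes were called, the same 5 and *Ifit3*, beside 36.4% of 42342 genes. The median log2 difference of all tested genes was 1.76 as deposited, and against it *Irf7* lay below and the other 4 above.

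After scaling, 1 of the 5 tested genes, *Bst2*, was called higher, beside 23.9% of genes called higher and 32.6% called lower. With no filter the count was 1 of 9, beside 40% of genes. The median log2 difference of all tested genes was -0.02, and the 5 tested genes ranged from 0.02 to 0.55, whereas the 4 untested ones ranged from -0.33 to -0.07. In bulk RNA, fewer cells of a type and less RNA per cell cannot be told apart.

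Cell type markers moved with bleomycin in the same *Acta2-tdT* mice. Of the 7 smooth muscle markers, 5 were called higher as deposited, and 1 higher and 3 lower after scaling. Fibroblast markers summed to between 22.6 and 43.9 FPKM with saline and between 1044 and 3181 with bleomycin as deposited, and to between 30.1 and 37.3 and between 222 and 337 after scaling, with 6 of 7 tested markers called higher on the latter scale. Of the tested macrophage markers 8 of 8 were called higher as deposited and 6 of 8 after scaling. Their scaled sums overlapped, at 91.1 to 339 with saline and 309 to 996 with bleomycin. Of the neutrophil markers 5 of 5 were called higher as deposited and 5 of 5 lower after scaling. Of the 4 tested endothelial markers, 3 were called higher as deposited, and 0 higher and 1 lower after scaling. The part of these cell types in the levels of the 9 genes was not tested.

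**Figure D2:**
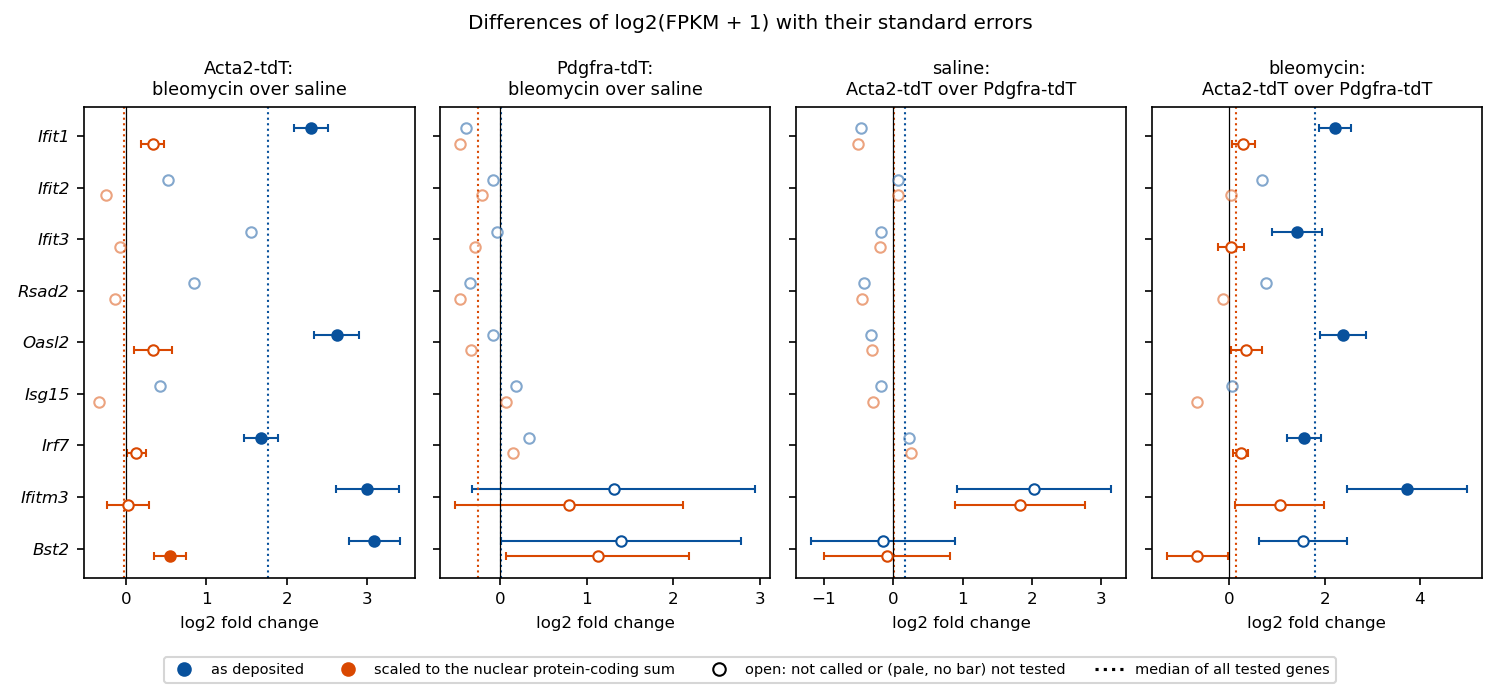
The x axes give log2 fold changes of FPKM + 1 in 4 comparisons and the y axis the 9 genes, for each gene as deposited (blue) and scaled (orange), with the standard error where limma tested the gene. Filled points were called, open ones were not, pale ones were not tested, and dotted lines mark the median of all tested genes. In *Acta2-tdT* cells the 5 filled blue points lay between 1.68 and 3.09, and *Bst2* at 0.55 was the filled orange one.

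The rank of a gene within its own mouse is the same on both scales, so it was read as a description. *Ifitm3* lay between the 99.42nd and the 99.97th percentile of 21950 nuclear protein-coding genes in all 16 mice. *Ifit1* went from between the 49.4th and 70.1st percentile in *Acta2-tdT* saline mice to between the 70.9th and 80.5th with bleomycin. *Irf7* went from between the 28.7th and 54.2nd to between the 61.7th and 73.9th. Of the 5 tested genes these 2 had ranks that did not overlap between the *Acta2-tdT* groups, beside 31.5% of 9254 tested protein-coding genes whose ranks were higher in every bleomycin mouse. Both are genes that passed the filter through the bleomycin group alone, and in *Acta2-tdT* saline mice they lay below the 95th percentile of the receptor genes. Between the lines with bleomycin, 0 of the 6 tested genes had ranks that did not overlap, beside 22.2% of 9445 genes that were higher in every *Acta2-tdT* mouse.

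**Figure D3:**
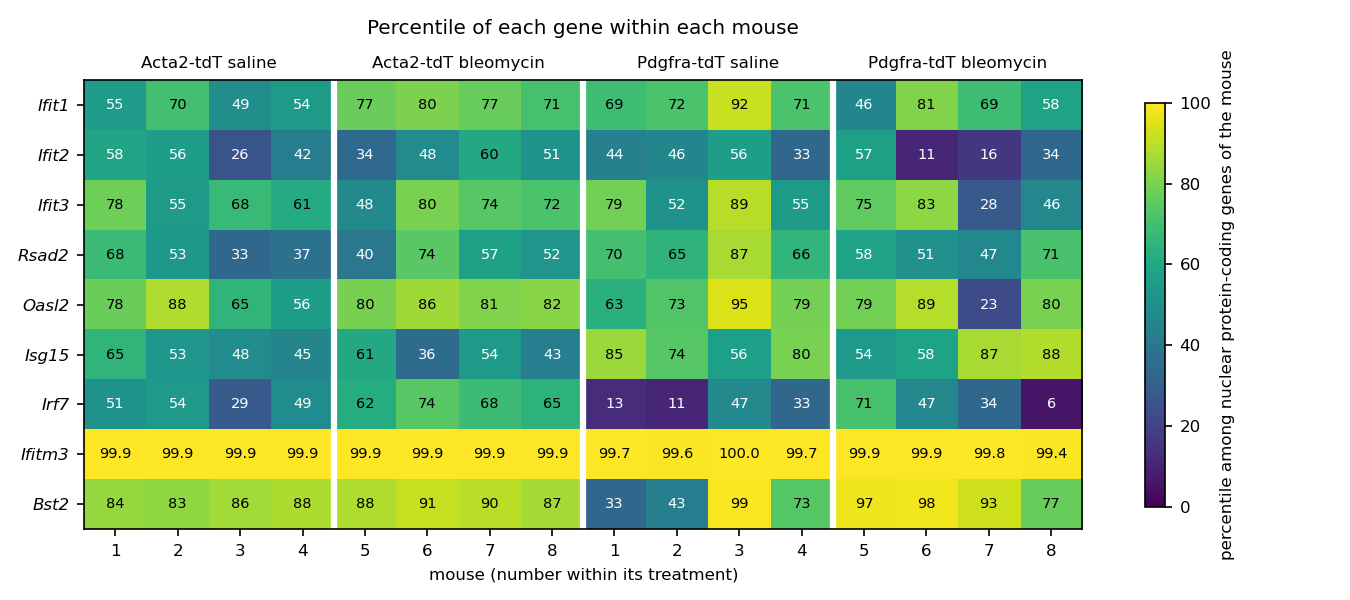
Each cell gives the percentile of a gene (rows) among the nuclear protein-coding genes of a mouse (columns, grouped), from 0 to 100 on the colour scale. *Ifitm3* was above the 99th percentile in all 16 mice, and mouse 3 of the *Pdgfra-tdT* saline group stood out for *Ifit1*, *Ifit3*, *Rsad2*, *Oasl2* and *Bst2*.

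For *Pdgfra-tdT* cells, no difference between bleomycin and saline was called for these genes. *Ifitm3* and *Bst2* were the 2 genes tested, and 0 were called on either scale, beside 0.124% of 7275 genes as deposited and 0.137% after scaling. With sample quality weights both were called higher with bleomycin after scaling (*Ifitm3* 2.01, adjusted p = 0.0393; *Bst2* 2.37, adjusted p = 0.0153), and 0 as deposited. At an unadjusted p under 0.05, 312 and 324 genes of all tested passed, and neither of the 2 was among them. *Ifitm3* differed by a log2 of 1.31 (SE 1.63, adjusted p = 0.793) and *Bst2* by 1.40 (SE 1.38, adjusted p = 0.791) as deposited, so the standard errors were about as large as the differences. The other 7 genes had log2 differences from -0.39 (*Ifit1*) to 0.34 (*Irf7*) with exact p-values from 0.343 to 0.914. Without mouse 3 of the saline group, the difference of *Ifitm3* became 2.52 (adjusted p = 0.371), and without mouse 5 of the bleomycin group it became 0.20 (adjusted p = 0.995).

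Within the *Pdgfra-tdT* line the highest levels of these genes came from 2 mice for most of them. The endothelial markers *Pecam1*, *Cdh5*, *Kdr*, *Tek*, *Cldn5*, *Vwf* and *Emcn* summed to 366 FPKM in saline mouse 3 and to between 4.42 and 10.6 in the other 3. They summed to 967, 106, 30.5 and 4.39 FPKM in bleomycin mice 5 to 8, in the same order as *Ifitm3* at 912, 161, 49.97 and 8.03 and *Bst2* at 40.8, 12.8, 2.41 and 0.485. All 7 of these markers were at 1 FPKM or more in at least 1 mouse of both *Pdgfra-tdT* groups, and 5 of the 7 were under 1 in every *Acta2-tdT* saline mouse. Fibroblast markers also summed higher in saline mouse 3, at 58.5 FPKM against 7.49 to 15.6, and in bleomycin mouse 5, at 160 against 2.85 to 18.8. Other sums fell in that same order over bleomycin mice 5 to 8, with macrophage markers at 3067, 1786, 1257 and 369 FPKM, pan-leukocyte markers at 484, 385, 270 and 63.2, and all nuclear protein-coding genes at 137952, 49700, 42515 and 28512. After scaling, macrophage markers summed to 1092, 1765, 1453 and 635 and pan-leukocyte markers to 172, 380, 312 and 109. Scaled fibroblast markers summed to 57.0, 18.6, 4.15 and 4.91, and scaled endothelial markers to 344, 105, 35.2 and 7.56. Scaled *Ifitm3* was at 325, 159, 57.7 and 13.8 and scaled *Bst2* at 14.5, 12.6, 2.79 and 0.835. In saline mouse 3 the scaled fibroblast sum was 48.1, against 12.3 to 21.2 in the other mice of its group. In saline mouse 3 the macrophage sum was 38.1 FPKM, within the 37.5 to 81.8 of its group, and the nuclear protein-coding sum was the highest of its group. The part of these cells in the levels of the interferon-stimulated genes was not tested.

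**Figure D4:**
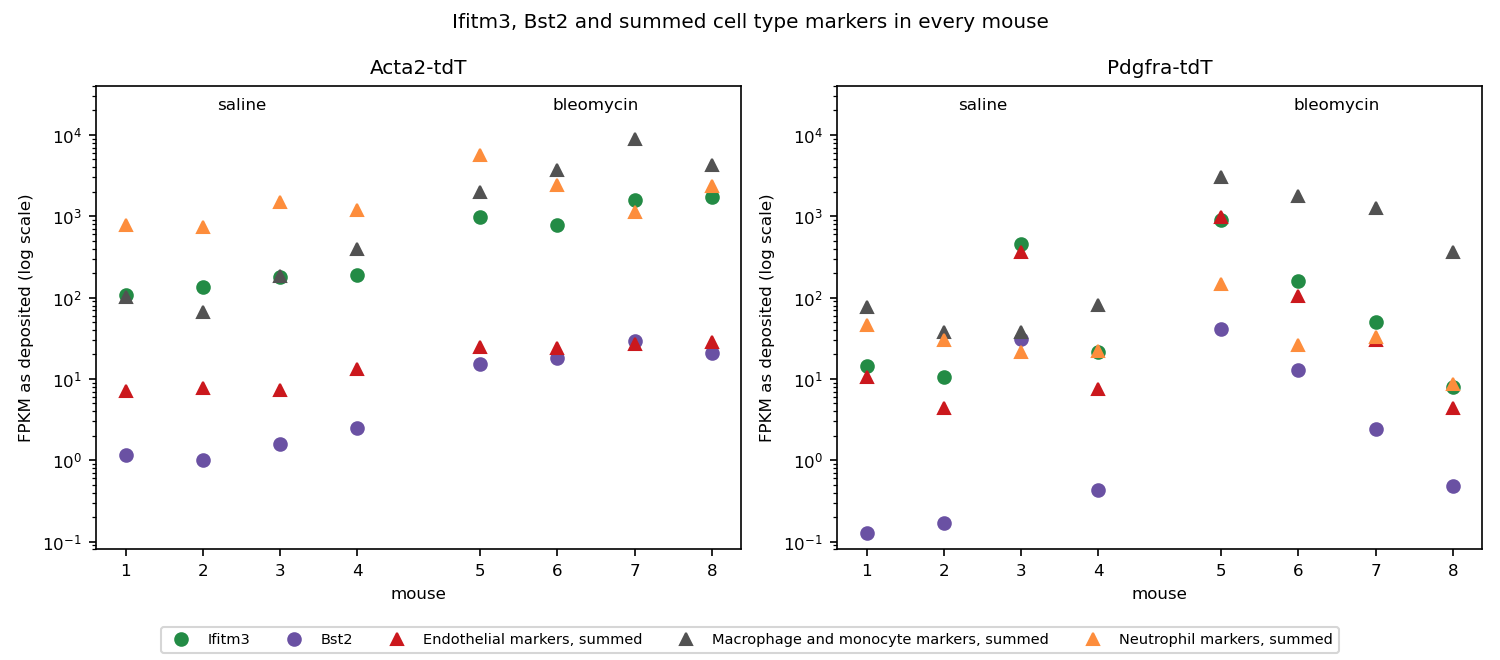
The y axis gives FPKM as deposited on a log scale for *Ifitm3* and *Bst2* (circles) and for summed endothelial, macrophage and neutrophil markers (triangles), and the x axis the mice of each line. Among *Pdgfra-tdT* mice, *Ifitm3*, *Bst2* and the endothelial sum were all highest in saline mouse 3 and bleomycin mouse 5, and the macrophage sum was also highest in bleomycin mouse 5. In *Acta2-tdT* mice the endothelial sum was between 7.12 and 13.3 with saline and between 24.2 and 28.5 with bleomycin.

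The comparison of the lines with saline asked whether the labelled cells differed before injury. *Ifitm3* and *Bst2* were tested and 0 were called, beside 2.91% of 8153 genes as deposited and 3.42% after scaling. At an unadjusted p under 0.05, 1116 and 1282 genes passed, and neither of the 2 was among them. With sample quality weights *Ifitm3* was called on both scales (3.19, adjusted p = 0.00238, and scaled 2.79, adjusted p = 0.00133) and *Bst2* after scaling (0.92, adjusted p = 0.0338). The *Ifitm3* level was 152 ± 36.7 FPKM in *Acta2-tdT* saline mice against 125 ± 218 in the other line (SD, n = 4 each), a log2 difference of 2.03 (SE 1.11, adjusted p = 0.476) with overlapping groups. Without *Pdgfra-tdT* saline mouse 3 it was higher in *Acta2-tdT* cells by 3.24 (adjusted p = 0.00260) as deposited and 2.82 (adjusted p = 0.00160) after scaling. *Bst2* moved from -0.15 to 1.02 as deposited when the same mouse was left out, and was then under the filter.

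With bleomycin, the lines differed in 5 of the 6 tested genes as deposited. *Ifit1* (2.22, SE 0.336, adjusted p = 0.000244), *Oasl2* (2.39, SE 0.483, adjusted p = 0.00114) and *Irf7* (1.57, SE 0.348, adjusted p = 0.00191) were higher in *Acta2-tdT* cells with no overlap between the groups. *Ifit3* (1.42, adjusted p = 0.0270) and *Ifitm3* (3.73, adjusted p = 0.0172) were called with overlapping groups, and the call of *Ifit3* was lost without any one of *Acta2-tdT* mice 6, 7 or 8 or *Pdgfra-tdT* mice 7 or 8 (adjusted p 0.0569 to 0.0671). *Bst2* was not called, at 1.54 (SE 0.924, adjusted p = 0.138), and without *Pdgfra-tdT* bleomycin mouse 5 it was, at 2.38 (adjusted p = 0.00563). *Ifit1* and *Irf7* reached 1 FPKM in 1 of the 4 *Pdgfra-tdT* bleomycin mice each, so they were tested through the *Acta2-tdT* group, where they were high. These 5 calls stood beside 71% of 11995 genes called higher in *Acta2-tdT* cells, with a median log2 difference of 1.81 over all tested genes. With no filter, 3 of the 9 genes were called, beside 21.5% of 40888 genes.

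After scaling, 0 of the 6 tested genes differed between the lines with bleomycin, beside 15.8% of genes called higher and 17.6% called lower. All 6 also had an unadjusted p over 0.05, where 5453 genes of all tested were under it. Their log2 differences ran from -0.67 (*Bst2*, SE 0.650) to 1.05 (*Ifitm3*, SE 0.926). Without *Pdgfra-tdT* mouse 5, *Irf7* was called at 0.35 (adjusted p = 0.0457). As deposited, pan-leukocyte markers summed to between 1576 and 3649 FPKM in *Acta2-tdT* bleomycin mice and neutrophil markers to between 1142 and 5699, against 63.2 to 484 and 8.63 to 147 in *Pdgfra-tdT* bleomycin mice. After scaling, the pan-leukocyte sums overlapped, at 204 to 411 against 109 to 380 with 0 of the 7 genes called, and the neutrophil sums did not, at 129 to 880 against 14.9 to 52.3. The part of these cells in the differences was not tested.

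Whether the effect of bleomycin differed between the lines was tested by the interaction over all 16 mice. As deposited, 3 of the 7 tested genes were called, with a more positive difference in *Acta2-tdT* than in *Pdgfra-tdT* cells, beside 36.6% of 16605 genes. They were *Oasl2* (2.71, SE 0.771, adjusted p = 0.0131), *Ifit1* (2.70, SE 0.550, adjusted p = 0.00194) and *Irf7* (1.34, SE 0.370, adjusted p = 0.0110), and the median over all tested genes was 1.05. *Ifit1* and *Irf7* reached 1 FPKM in only 2 and 1 of the 12 mice outside the *Acta2-tdT* bleomycin group, so they passed the filter through that group and their call follows in part from it. Without *Acta2-tdT* bleomycin mouse 5 the count was 5, since *Ifit3* (2.12, adjusted p = 0.0226) and *Rsad2* (1.51, adjusted p = 0.0340) were then called too. With a pseudocount of 0.1 the count was 1, since *Irf7* (2.18, adjusted p = 0.110) and *Oasl2* (3.68, adjusted p = 0.0579) were no longer called. After scaling 0 of 7 were called, beside 1.33% of genes, and the 7 differences ran from -0.78 (*Ifitm3*) to 0.79 (*Ifit1*, SE 0.461). None of the 7 had an unadjusted p under 0.05 after scaling, whereas 3165 genes of all tested did.

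The interferon genes themselves were almost not seen. Of 21 genes for type I, II and III interferons, 0 passed the filter in any comparison. They were listed at 0 in 63 of 84 values in *Acta2-tdT* saline mice, 78 of 84 in *Acta2-tdT* bleomycin mice, 55 of 84 in *Pdgfra-tdT* saline mice and 67 of 84 in *Pdgfra-tdT* bleomycin mice. The highest value in an *Acta2-tdT* bleomycin mouse was 0.194 FPKM for *Ifnl2*, and *Ifna11* reached 1.52 FPKM in *Pdgfra-tdT* saline mouse 3 and 1.64 in *Pdgfra-tdT* bleomycin mouse 6. Markers of plasmacytoid dendritic cells, a main source of type I interferon, summed in *Acta2-tdT* mice to between 5.77 and 8.06 FPKM with saline and between 35.6 and 63.6 with bleomycin as deposited, and to between 5.84 and 9.25 and between 5.49 and 7.76 after scaling. Most of the higher sum as deposited was *Tcf4*, a transcription factor gene, with means of 2.90 FPKM with saline and 40.9 with bleomycin, beside 0.378 and 3.84 for *Runx2* and 0 and 2.22 for *Cox6a2*. *Siglech*, a surface receptor gene of these cells, had means of 1.56 and 1.25. Its saline values reached at most 2.19 FPKM, below the 95th percentile of the olfactory and vomeronasal receptor genes. The means of *Ccr9* were 1.43 with saline and 0.420 with bleomycin, and those of *Spib* 0.444 and 0.255. After scaling 1 of the 3 tested markers was called higher, *Tcf4* (log2 0.61, adjusted p = 0.0217), and 1 lower, *Siglech* (log2 -1.18, adjusted p = 0.000287).

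Of 12 genes of the interferon receptors and the JAK-STAT chain, 8 were tested in *Acta2-tdT* cells and 8 were called higher with bleomycin as deposited, with a median log2 difference of 2.56 beside 1.76 for all tested genes, and 3 of 8 were called higher after scaling, with a median of 0.25 beside -0.02. The shares of all tested genes called were 70.4% higher as deposited, and 23.9% higher and 32.6% lower after scaling. *Jak2* and *Irf9*, 2 of the 8, passed the filter through the bleomycin group alone. *Ifngr1*, a chain of the receptor for interferon-gamma, was at 3.69 ± 2.23 FPKM with saline and 76.7 ± 33.4 with bleomycin (SD, n = 4), higher by a log2 of 4.07 as deposited and 1.25 after scaling (adjusted p = 0.00471). *Ifngr2*, the other chain, was higher by 2.70 as deposited and 0.37 after scaling (adjusted p = 0.0473). Both had groups that did not overlap on either scale.

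Among 16 nucleic acid sensors and their adaptors, 10 were tested and 10 were called higher with bleomycin in *Acta2-tdT* cells as deposited, and 3 were called higher and 2 lower after scaling. Of all tested genes in this comparison, 70.4% were called higher as deposited, and 23.9% higher and 32.6% lower after scaling. *Tmem173*, which encodes the DNA-sensing adaptor STING, was at 0.537 ± 0.168 FPKM with saline and 30.3 ± 12.2 with bleomycin (SD, n = 4). Its log2 difference was 4.26 as deposited and 1.65 after scaling (adjusted p = 4.66e-05), and it was also higher in *Acta2-tdT* than in *Pdgfra-tdT* cells with bleomycin on both scales (3.79 and 1.35, adjusted p = 0.0139 for the latter). *Mavs*, the mitochondrial adaptor of the RNA sensors, was higher by 2.46 and 0.52 (adjusted p = 0.00468 after scaling). *Ifih1*, an RNA sensor, was called in opposite directions, at a log2 difference of 1.03 as deposited (adjusted p = 0.00139) and -0.37 after scaling (adjusted p = 0.0144). *Tmem173*, *Mavs* and *Ifih1* were among 7 of the 10 tested genes that were under 1 FPKM in every *Acta2-tdT* saline mouse and passed the filter through the bleomycin group alone, so the count follows in part from the filter. Of the other 3, 3 were called higher as deposited, and 0 higher and 1 lower after scaling.

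Enzymes that join ISG15 to proteins or take it off again formed a further list. *Uba7*, *Ube2l6*, *Trim25* and *Usp18* were the 4 tested of 5 genes, and 4 were called higher with bleomycin in *Acta2-tdT* cells as deposited (log2 1.19 to 2.29) and 0 after scaling (-0.48 to 0.20), beside 70.4% and 23.9% of all tested genes called higher. *Uba7* and *Usp18* were under 1 FPKM in every saline mouse. *Usp18*, which removes ISG15 and restrains the interferon receptor, was at 0.578 ± 0.222 FPKM with saline and 6.27 ± 3.13 with bleomycin (SD, n = 4). *Herc6*, the ligase of the mouse ISG15 pathway, reached at most 0.416 FPKM in any of the 16 mice and was not tested.

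Of 8 negative regulators, 6 were tested and 6 were called higher with bleomycin in *Acta2-tdT* cells as deposited and 1 higher after scaling, *Ptpn11*, a phosphatase gene (log2 0.54, adjusted p = 0.00926), beside 70.4% and 23.9% of all tested genes called higher. Between the lines with bleomycin, 4 of 6 were higher in *Acta2-tdT* cells after scaling, with a list median of 0.71 beside 0.14 for all tested genes and 15.8% of them called higher. They were *Ptpn6* (1.70, adjusted p = 0.0189), a leukocyte phosphatase gene, *Trex1* (1.39, adjusted p = 0.0178), which encodes a nuclease that clears DNA from the cytosol, *Ptpn11* (0.81, adjusted p = 0.0159) and *Pias1* (0.61, adjusted p = 0.0227). *Socs1* and *Socs3*, the feedback inhibitors of JAK kinases, were not tested and had means of 1.63 and 2.97 FPKM in *Acta2-tdT* bleomycin cells and 0.0943 and 0.113 FPKM with saline. The remaining genes, *Ptpn2* and *Usp18*, were not called after scaling.

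Of 44 further antiviral effector genes, 27 were tested in *Acta2-tdT* cells. With bleomycin 23 were called higher and 1 lower as deposited, and 5 higher and 7 lower after scaling, with list medians of 1.95 and -0.03 beside 1.76 and -0.02 for all tested genes. Of all tested genes 70.4% were higher and 16.3% lower as deposited, and 23.9% higher and 32.6% lower after scaling. Of the 27, 8 were under 1 FPKM in every saline mouse and had to be high with bleomycin to be tested, and of the other 19, 15 were called higher and 1 lower as deposited, and 2 higher and 7 lower after scaling. Those higher on both scales were led by *Lgals3bp*, which encodes a secreted glycoprotein (log2 4.72 and 1.91), *Ifi27* (3.75 and 0.80) and *Zbp1*, which encodes a sensor of left-handed nucleic acids (2.79 and 0.74), which was 1 of the 8 genes under 1 FPKM in every saline mouse. *Ifit1bl2*, a relative of *Ifit1*, fell on both scales (-0.48 and -1.12), from 1.25 ± 0.186 to 0.624 ± 0.286 FPKM (SD, n = 4). It was at 1.04 to 1.46 FPKM in the saline mice, below the 95th percentile of the olfactory and vomeronasal receptor genes. It reached at most 0.926 FPKM with bleomycin and passed the filter through the saline group alone. Its lower calls, counted among the other 19 genes, follow in part from the filter. *Pml* and *Trim30a* were called higher as deposited (0.99 and 0.82) and lower after scaling (-0.74 and -0.71).

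Among the relatives of *Ifitm3*, *Ifitm1*, which encodes a plasma membrane restriction factor, was the gene of this list that was called between the lines with saline on both scales, with 62.7 ± 28.2 FPKM against 2.37 ± 1.57 in *Pdgfra-tdT* cells (SD, n = 4 each; log2 4.27, adjusted p = 0.00686; scaled 4.08, adjusted p = 0.00881). Of the 17 genes of the list tested there, 2 were called higher in *Acta2-tdT* cells on each scale, beside 2.91% and 3.42% of all tested genes in either direction, the other being *Ifi27l2a* as deposited (2.45, adjusted p = 0.0476) and *Ifitm6* after scaling (2.49, adjusted p = 0.0471). With bleomycin *Ifitm1* was again higher in *Acta2-tdT* cells (5.27, and scaled 2.44, adjusted p = 0.0201), as was *Ifitm6* (5.06, and scaled 2.49, adjusted p = 0.00277). *Ifitm6* reached at most 0.0783 FPKM in *Pdgfra-tdT* bleomycin mice, so it was tested through the *Acta2-tdT* group, where it was high. Its call follows in part from the filter. Within *Acta2-tdT* cells the direction for *Ifitm1* turned with the scale, at 62.7 ± 28.2 and 147 ± 81.9 FPKM as deposited (SD, n = 4; log2 1.16, adjusted p = 0.0671) and lower with bleomycin after scaling (log2 -1.75, adjusted p = 0.00941). Neutrophil markers summed to 741 to 1478 FPKM with saline and 1142 to 5699 with bleomycin as deposited, and to 1016 to 1496 and 129 to 880 after scaling, beside 17.6 to 75.7 scaled in *Pdgfra-tdT* saline mice. Their part in these differences was not tested.

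Genes known for interferon-gamma responses and antigen presentation formed the last lists. Of 24 GTPase, chemokine and factor genes, 9 were tested in *Acta2-tdT* cells and 9 were called higher as deposited, and 2 higher and 1 lower after scaling, beside 70.4% of all tested genes higher as deposited and 23.9% higher and 32.6% lower after scaling. Of the 9, 4 passed the filter through the bleomycin group alone, and of the other 5, 5 were called higher as deposited, and 0 higher and 1 lower after scaling. *Cxcl10*, a chemokine gene that draws T cells, was at 0.336 ± 0.308 FPKM with saline and 20.4 ± 3.38 with bleomycin in *Acta2-tdT* cells, and at 0.220 ± 0.150 and 0.197 ± 0.148 in *Pdgfra-tdT* cells (SD, n = 4 each). Its log2 difference in *Acta2-tdT* cells was 4.02 as deposited and 1.48 after scaling (adjusted p = 0.000522), and it was the gene of these 8 lists that was called for the interaction after scaling (4.04, and scaled 1.59, adjusted p = 0.0115). *Cxcl10* was under 1 FPKM in all 12 mice outside the *Acta2-tdT* bleomycin group and passed the filter through that group alone, so these calls follow in part from the filter. Of 16 genes of MHC class I presentation, 13 were tested, with 11 higher and 1 lower as deposited and 2 higher and 1 lower after scaling, beside the same shares of all genes. *Tapbp* (3.96 and 1.13) and *Tap1* (2.75 and 0.55), which supply and load peptides, were higher on both scales, *Tap1* with every saline mouse under 1 FPKM, and *H2-Q4*, a nonclassical class I gene, was lower on both (-0.88 and -2.02).

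**Figure D5:**
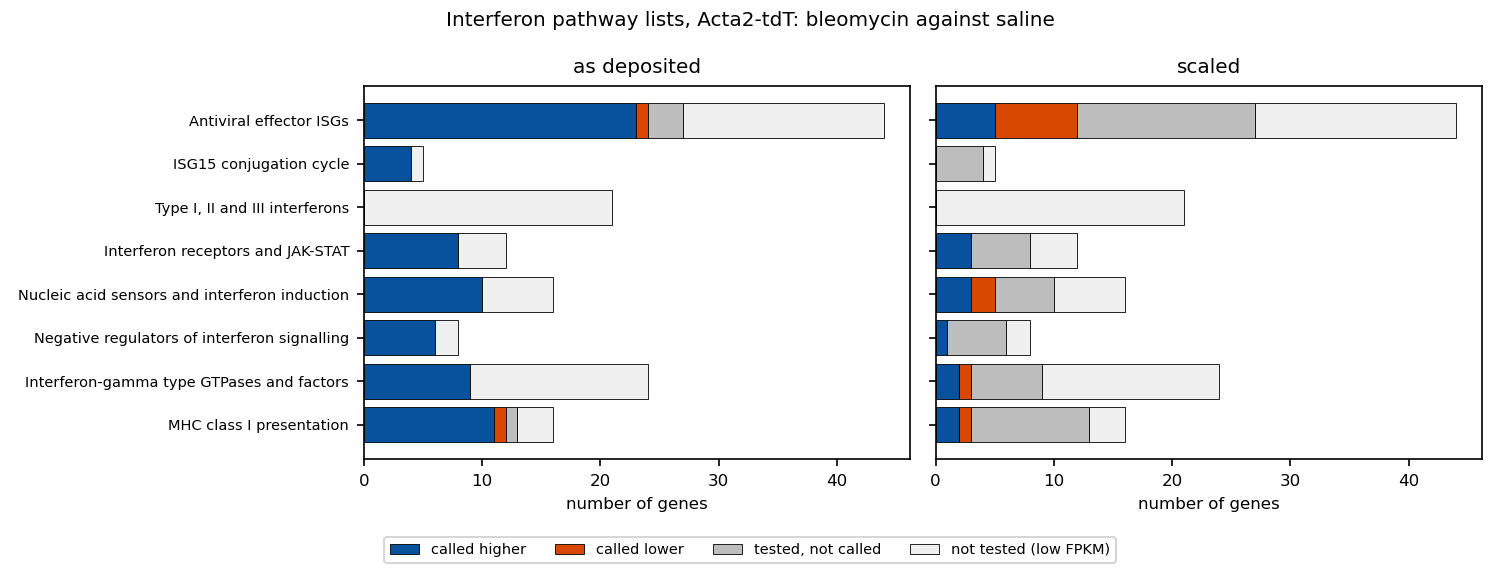
The x axes give, for 8 lists of interferon pathway genes (y axis) in *Acta2-tdT* cells, the number of genes called higher or lower with bleomycin, tested without a call, or not tested, as deposited and scaled. Of the 7 lists with tested genes, most tested genes of each were called higher as deposited, as were 70.4% of all tested genes, and after scaling the ISG15 conjugation list had 0 calls and the effector list 5 higher and 7 lower.

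With bleomycin, 0 genes of these lists were called by limma in the *Pdgfra-tdT* line on either scale, against 9 and 10 of all 7275 genes tested. The lists with tested genes had median log2 differences from -0.30 (ISG15 conjugation, 1 gene) to 1.26 (MHC class I presentation, 12 genes) as deposited. Macrophage markers summed to between 37.5 and 81.8 FPKM with saline and between 369 and 3067 with bleomycin in this line as deposited, and to between 31.3 and 126 and between 635 and 1765 after scaling, without overlap on either scale. In *Acta2-tdT* cells they summed to between 66.0 and 399 with saline and between 1998 and 8832 with bleomycin as deposited, and after scaling the sums overlapped, at 91.1 to 339 and 309 to 996, with 6 of 8 tested markers called higher. Their part in the levels of the interferon-stimulated genes was not tested.

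The genes whose pattern over the 16 mice was most like the mean pattern of the 9 were sought among 7884 genes that reached 1 FPKM in 8 or more mice. The mean pattern was taken from the 7 genes that did so in 4 or more mice, that is without *Ifit2* and *Isg15*, on scaled and standardised log2 values. Among the closest were *Hnrnph2*, *Rad21*, *Idnk*, *Ifi47*, *Tomm34*, *Ets2* and *Sec62*, with root mean square distances from 0.392 to 0.548 beside a median of 1.47. *Ifi47*, which encodes a GTPase of immunity, had levels of 1.03 ± 0.669 FPKM with saline and 12.3 ± 2.82 after bleomycin in the *Acta2-tdT* line, and of 3.93 ± 7.12 and 4.18 ± 6.13 in the *Pdgfra-tdT* line (SD, n = 4 each).

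Per length, the order of mean levels was led by *Ifitm3* in all 4 groups. *Bst2* came next, but in *Pdgfra-tdT* saline cells this rested on mouse 3, at 31.0 FPKM, and in the other 3 mice of that group *Bst2* was between 0.127 and 0.432 FPKM, below *Isg15* and *Oasl2* in each. In *Acta2-tdT* bleomycin cells *Ifitm3* at 1270 ± 465 FPKM (SD, n = 4) was followed by *Bst2* at 21.0 ± 5.94, *Oasl2* at 10.3 ± 2.65, *Ifit1* at 6.12 ± 1.24, *Ifit3* at 4.48 ± 2.62 and *Irf7* at 3.22 ± 0.967. *Rsad2* at 1.66 ± 1.45, *Ifit2* at 0.997 ± 0.921 and *Isg15* at 0.939 ± 0.772 (SD, n = 4) closed the order. The ranges of *Ifitm3*, *Bst2* and *Oasl2* did not overlap with each other, whereas neighbours in the order from *Oasl2* downwards overlapped. In *Acta2-tdT* saline cells *Ifitm3* at 152 ± 36.7 and *Bst2* at 1.57 ± 0.684 (SD, n = 4) were followed by 7 genes with means between 0.290 and 0.819 FPKM, and neighbours in the order overlapped from *Bst2* downwards.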

How the data were processed

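RNA of tdTomato-positive lung cells, sorted into lysis buffer and amplified with SmartSeq2, was sequenced from 4 groups of 4 mice. The authors aligned reads with TopHat2 2.1.1 and Bowtie2 2.2.9 to GRCm38 and computed FPKM for each mouse with Cufflinks 2.1.1, and these deposited FPKM were used. They carry no counts, so depth is unknown. FPKM were summed per gene, and 15 of 49452 genes whose status was other than OK in at least 1 mouse were left out.

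Groups were taken from the sample labels. Genes that reached 1 FPKM in 4 or more mice of the fit were tested with limma 3.58.1 (lmFit, eBayes with trend) in R 4.3.3 on log2(FPKM + 1), as deposited and scaled, with Benjamini-Hochberg adjustment over all tested genes and a threshold of 0.05. Fold changes on this scale understate the change of low genes. Exact tests were two-sided permutations over 70 labellings of 8 mice, with a smallest p of 0.02857. The procedure was tested on simulated data. Python 3.11.15 with pandas 2.3.3 was used. Of all pairs of mice, 0 had identical values.

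The 9 genes and the lists were chosen with earlier results of these data known. All 9 are named with their values. Of pathway lists of at most 8 genes every gene was named; of longer lists at most the 3 largest changes in each direction that passed on both scales without overlap, and *Pml*, *Trim30a*, *Ifih1*, *Ifi27l2a*, the plasmacytoid markers, *Ifitm1* within *Acta2-tdT* cells and the interferon genes with the highest values were added after their values were seen. Marker lists are given as counts and summed levels, with the endothelial genes named. Of the 8 genes most like the members, 1 is not reported here. Promoters are RefSeq's, and all 9 genes matched. Alternatives were sample quality weights, no filter on low values, a mean of at least 5 FPKM, a pseudocount of 0.1, scaling to 1000000, a replicate block, all 16 mice in 1 fit, and each mouse left out.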

Additional observations from a re-analysis of the deposited data

Results flagged for a closer look

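Within groups of 4 mice, a value is listed here when its gap to the nearest other mouse, as a ratio to the group's whole range on log2(FPKM + 1), was above Dixon's critical value (which chance passes in about 1 of 20 groups). Of 36 groups of values, 6 passed as deposited and 5 after scaling. Saline mouse 3 of the *Pdgfra-tdT* line was the high value for *Ifit1* (ratios 0.991 as deposited and 0.954 scaled), *Rsad2* (0.943 and 0.843), *Oasl2* (0.914 and 0.911), *Bst2* (0.929 and 0.912) and, after scaling, *Ifitm3* (0.838). These 9 values come from 1 mouse and are not independent of each other. The same mouse held the high endothelial marker sum of its group, and the part of that in these values was not tested. Bleomycin mouse 5 of the *Acta2-tdT* line was the low value for *Ifit3* as deposited (0.899), and saline mouse 1 of that line the high value for *Isg15* as deposited (0.936).

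The effect of bleomycin differed between the lines, by the interaction in limma over 16 mice, as deposited for *Ifit1* (2.70), *Irf7* (1.34) and *Oasl2* (2.71), each with a more positive difference in *Acta2-tdT* than in *Pdgfra-tdT* cells. *Ifit1* and *Irf7* passed the filter on low values through the *Acta2-tdT* bleomycin group, with 2 and 1 of the other 12 mice at 1 FPKM or more. None of these 3 differences was called after scaling.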

How the results depend on the processing

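The counts of genes called moved as follows, and the other counts stayed within 1.5 times of those reported. Between the lines with saline, sample quality weights gave 1 call as deposited and 2 after scaling, and leaving out 1 mouse gave 0 to 1 on both scales. Between the lines with bleomycin, as deposited, no filter gave 3 calls and a mean FPKM of at least 5 gave 2, where 3 of the genes were tested; leaving out 1 mouse gave 4 to 6 as deposited and 0 to 1 after scaling. For bleomycin in *Acta2-tdT* cells, a mean FPKM of at least 5 gave 3 calls of 3 tested, all 16 mice in 1 fit gave 0 after scaling, and leaving out 1 mouse gave 3 to 5 and 0 to 1 (*Bst2*, or *Ifit1* without *Acta2-tdT* saline mouse 2); the lower count as deposited came without any one bleomycin mouse, when *Ifit1* and *Irf7* no longer passed the filter. For bleomycin in *Pdgfra-tdT* cells, sample quality weights gave 2 calls after scaling, and leaving out 1 mouse gave 0 on both scales. For the interaction as deposited, a pseudocount of 0.1 gave 1 call (*Ifit1*), a mean FPKM of at least 5 gave 0 and sample quality weights gave 5, and leaving out 1 mouse gave 3 to 5, and 0 after scaling. The cause was not tested where none is named. Signs turned for *Bst2* between the lines with saline (0.66 and 0.55 with a pseudocount of 0.1 on the 2 scales, 0.91 and 0.92 with quality weights, 0.66 scaled to 1000000), and with quality weights in the scaled interaction for *Ifit3* (-0.16) and *Rsad2* (-0.000392). Leaving out 1 mouse turned scaled values of *Ifit3* between the lines with bleomycin (-0.13 to 0.21), *Ifitm3* with bleomycin in *Acta2-tdT* cells (-0.0483 to 0.0796), and *Irf7* and *Ifit3* in the interaction (-0.12 to 0.10 and -0.14 to 0.40). Replicate numbers are shared between the lines within a treatment; same-numbered mice correlated in their deviations by -0.31 to 0.16, so they were not taken as pairs, and a replicate block left the counts at 0 with saline and at 5 and 0 with bleomycin. Of the log2 differences of untested genes, 24 moved by more than the spread between mice with a pseudocount of 0.1 and 13 with scaling to 1000000, all away from 0 and in *Ifit2*, *Ifit3*, *Irf7*, *Isg15* and *Rsad2*. Depth is unknown, so precision at low FPKM rests on the spread between mice.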
